A study of Mus musculus with 20 samples.

Results

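The 5 abundant secretory transcripts of the mouse ventral prostate described here are Sbp, Sbpl, Spink3, 9530002B09Rik and 5430419D17Rik. They were chosen by their counts: a list of symbols of the count table, which holds 43472 genes, that rank among its most abundant transcripts over all libraries. All 5 were found there, and all 5 are among the 15261 genes with enough counts to be tested. The study compared 20 RNA-seq libraries of ventral prostate in 4 groups of 5. The groups were ARNoC/Y males given testosterone, ARNoC/Y males given vehicle, WT (C57BL/6J) males given testosterone and WT males given vehicle. Every male, the WT controls included, had been orchidectomised, which removes the testicular source of androgen, and the replacement lasted 4 days. ARNoC mice carry an androgen receptor altered so that its amino-terminal and carboxyl-terminal parts no longer bind each other. A change of that kind leaves no mark in a gene count, so the genotype of the libraries could not be checked here. The labels give no age, and they do not say if each library is 1 animal. The p-values therefore measure the spread between these libraries, which may in part be technical.

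The ventral prostate is a lobe of the rodent prostate whose luminal epithelial cells make and secrete a large part of the fluid that joins semen. Testosterone, or dihydrotestosterone made from it, binds the androgen receptor in these cells, and the receptor then binds DNA at short motifs related to AGAACA and drives genes of secretion. After castration the gland shrinks and its secretory transcripts fall, and androgen replacement restores them. Sbp encodes spermine-binding protein, a secreted protein that binds polyamines, and Sbpl encodes a spermine-binding protein-like relative. Spink3, named Spink1 in the GENCODE annotation, encodes a small secreted serine protease inhibitor of the Kazal type that is also made in pancreas and seminal vesicle. RefSeq lists Vpp1 among the synonyms of 9530002B09Rik and names 5430419D17Rik as Cdcp3.

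In the GRCm38 (mm10) build of GENCODE M21, Sbp (ENSMUSG00000024128.13) lies at chr17:23941672-23945607 on the plus strand, and Sbpl (ENSMUSG00000024125.2) at chr17:23953084-23955274 on the minus strand. The gap between these genes is 7476 bases, and the pair points inward from opposite strands. The gene 9530002B09Rik (ENSMUSG00000023263.3) lies at chr4:122689275-122705129 on the plus strand. The gene 5430419D17Rik (ENSMUSG00000006204.6) lies at chr7:131174402-131306451 on the plus strand and is the longest of the 5, with 69 exon blocks and 8572 exonic bases, where the other 4 have 729 to 1471 exonic bases each.

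The promoter windows of 4 of the transcripts, which share a response to androgen, are shown with the short androgen receptor motif AGAACA or TGTTCT in capitals. Each window runs from 250 bases before to 50 bases after a RefSeq start site in GRCm38.p6 and is written 5′ to 3′ on the strand of its gene. The Sbp window is chr17:23941668-23941967 on the plus strand, the Sbpl window chr17:23955224-23955523 on the minus strand, the 9530002B09Rik window chr4:122689009-122689308 on the plus strand and the 5430419D17Rik window chr7:131174152-131174451 on the plus strand.
Sbp: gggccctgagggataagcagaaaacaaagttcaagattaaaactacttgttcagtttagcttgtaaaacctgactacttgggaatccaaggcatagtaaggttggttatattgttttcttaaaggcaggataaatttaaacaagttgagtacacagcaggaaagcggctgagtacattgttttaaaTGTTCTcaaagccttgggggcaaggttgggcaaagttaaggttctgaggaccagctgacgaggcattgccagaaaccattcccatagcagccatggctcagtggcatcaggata
Sbpl: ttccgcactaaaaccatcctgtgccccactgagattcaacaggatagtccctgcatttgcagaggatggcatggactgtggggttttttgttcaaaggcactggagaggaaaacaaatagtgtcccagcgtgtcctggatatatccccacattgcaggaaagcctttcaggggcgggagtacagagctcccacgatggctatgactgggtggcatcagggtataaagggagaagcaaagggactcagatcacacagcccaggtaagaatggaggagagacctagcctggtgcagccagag
9530002B09Rik: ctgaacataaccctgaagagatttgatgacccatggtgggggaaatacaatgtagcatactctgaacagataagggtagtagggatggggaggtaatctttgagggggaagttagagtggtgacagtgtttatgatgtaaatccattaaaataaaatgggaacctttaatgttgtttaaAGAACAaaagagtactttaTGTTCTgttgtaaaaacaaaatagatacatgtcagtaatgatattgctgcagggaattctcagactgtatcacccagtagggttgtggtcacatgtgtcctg
5430419D17Rik: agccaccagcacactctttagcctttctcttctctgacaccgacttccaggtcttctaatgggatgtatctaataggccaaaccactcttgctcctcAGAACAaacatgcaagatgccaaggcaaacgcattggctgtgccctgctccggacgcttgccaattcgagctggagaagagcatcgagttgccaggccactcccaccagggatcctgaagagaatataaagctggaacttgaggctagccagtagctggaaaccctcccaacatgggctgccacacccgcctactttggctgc
The motif searched was AGAACA, or TGTTCT on the other strand. Sbp held 1 match, TGTTCT starting at position -64 from the start site. The window of 9530002B09Rik held 2, AGAACA starting at -71 and TGTTCT starting at -52, which is an inverted pair. One match, AGAACA starting at -153, was found for 5430419D17Rik, and none in the Sbpl window or in 2 other RefSeq windows of Sbp. The Sbp window printed is thus the one with a match, and its start site is 23941918. A window without a match, with its start site at 23941678, lies nearer the GENCODE gene start at 23941672. Of all 32817 promoter windows of this length, 19.0% held at least 1 match and 2.54% at least 2. The full palindrome, AGAACA and TGTTCT with 3 bases between them, was in 0.00914% of all windows and in none of these. TATAAA, searched on both strands, was in the windows of Sbpl and 5430419D17Rik and in 13.6% of all windows. A match is a description of the letters and not evidence of binding.

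Together the 5 transcripts took 16.9% ± 0.962 of all counts in ARNoC libraries with testosterone and 4.99% ± 1.36 in ARNoC libraries with vehicle (SD, n = 5 each). In WT mice they took 21.6% ± 2.86 with testosterone and 5.70% ± 0.476 with vehicle (SD, n = 5 each). The lowest share in any testosterone library was 15.6% and the highest in any vehicle library 7.15%, so the treatments did not overlap. With testosterone the ARNoC libraries ran from 15.6 to 17.8% and the WT libraries from 18.9 to 25.6%, again without overlap. With vehicle the genotypes overlapped, at 3.66 to 7.15% in ARNoC and 4.90 to 6.16% in WT. Library totals ran from 8861646 to 21600352 counts, and the widest 95% Wilson interval of any single transcript's share was 0.0213 points to either side, which covers counting error only.

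**Figure D1:**
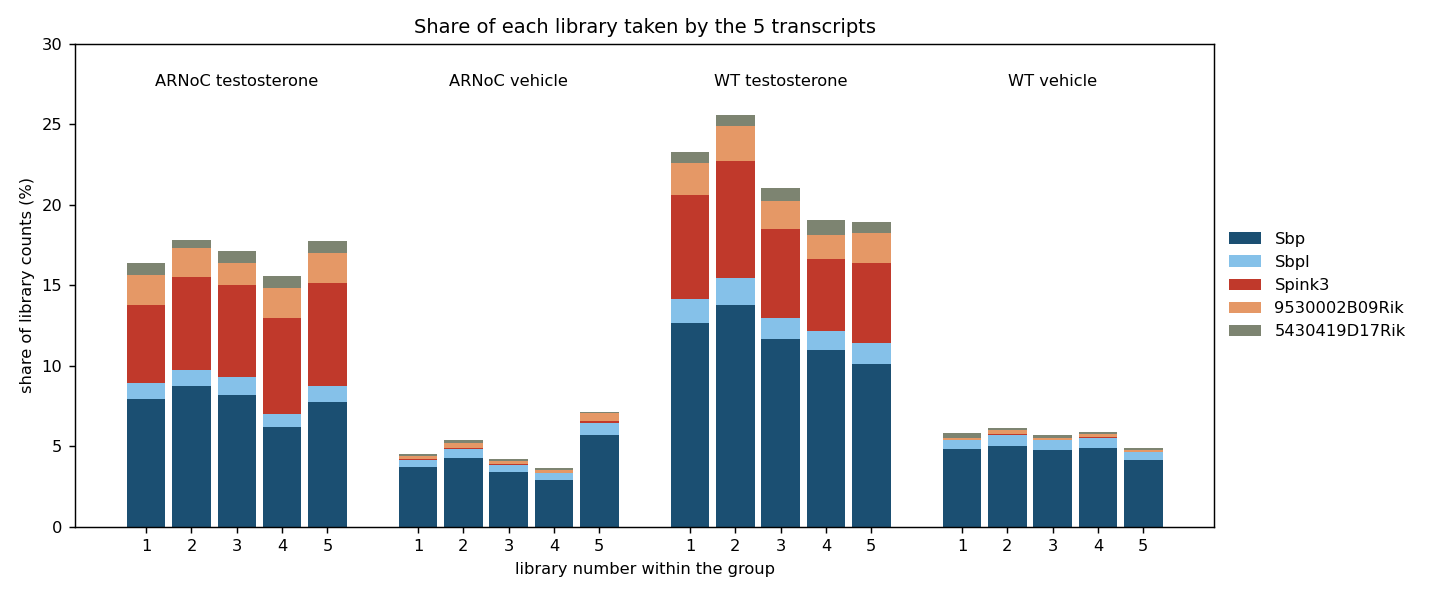
Share of library counts (%, linear axis from 0) taken by each of the 5 transcripts in each of the 20 libraries, stacked, with 1 bar for each library. The testosterone bars stand between 15.6 and 25.6%, and the vehicle bars stand at 7.15% or less and consist mostly of Sbp.

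Sbp took the largest share of counts in each of the 20 libraries. It made up 7.76% ± 0.950 of counts in ARNoC with testosterone and 4.01% ± 1.05 in ARNoC with vehicle (SD, n = 5 each). In WT it made up 11.8% ± 1.43 with testosterone and 4.73% ± 0.354 with vehicle (SD, n = 5 each). Sbpl ranked 4 by mean share in both testosterone groups and in ARNoC with vehicle, and 3 in WT with vehicle. Spink3 ranked 2 in both testosterone groups and only 123 in ARNoC with vehicle and 333 in WT with vehicle. The rank of 9530002B09Rik was 3 in both testosterone groups, 13 in ARNoC with vehicle and 29 in WT with vehicle. The transcript of 5430419D17Rik ranked 5 in both testosterone groups, 39 in ARNoC with vehicle and 27 in WT with vehicle. With testosterone it has the smallest share of the 5, while with vehicle Spink3 has, at 0.0642% in ARNoC and 0.0348% in WT, against 0.137% in ARNoC and 0.169% in WT for 5430419D17Rik. Its mean share over all 20 libraries was 0.438%, below Slc12a2, an ion cotransporter, at 0.585%. The composition therefore differed by treatment, with Sbp far ahead of the others in vehicle libraries and Sbp and Spink3 both above 5% on average with testosterone.

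Per kilobase of annotated exon, with the exons of all transcripts of a gene joined, Spink3 and Sbp were close in level with testosterone in WT. The joined length was 1471 bases for Sbp, over 7 transcripts, and 729 for Spink3, with 1 transcript. The single transcript Sbp-207 is 1002 bases long, and a shorter length raises the Sbp level. How Sbp and Spink3 compare per kilobase therefore depends on the length chosen. In normalized counts per kilobase, Sbp averaged 704017 ± 101805 and Spink3 1052580 ± 121297 in ARNoC with testosterone, while in WT with testosterone Sbp averaged 1147160 ± 210733 and Spink3 1129292 ± 291044 (SD, n = 5 each). A normalized count is a count divided by the deposited size factor of its library. On the same scale 9530002B09Rik averaged 288119 ± 42000 in ARNoC and 329746 ± 65417 in WT with testosterone, and Sbpl averaged 147660 ± 18630 in ARNoC and 223848 ± 46121 in WT. The long gene 5430419D17Rik averaged 10941 ± 1316 in ARNoC and 12170 ± 1695 in WT with testosterone, which puts it lowest of the 5 per kilobase.

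Testosterone raised all 5 transcripts in both genotypes, and in neither genotype did a testosterone library of any of the 5 overlap a vehicle library. The rises ranged from 2.40-fold for Sbpl in ARNoC to 224-fold for Spink3 in WT. Across all genes tested, 19.4% rose in ARNoC and 20.4% rose in WT, 12.4% in ARNoC and 15.2% in WT were higher without overlap, and the median log2 change was -0.01 in ARNoC and -0.02 in WT. Choosing transcripts for abundance favours those that are high under one treatment, so these counts are a description. The same holds for the folds and adjusted p-values of the testosterone responses given for each transcript below. They are not support separate from that choice. In bulk tissue, fewer cells of a type and less RNA per cell cannot be told apart. Scaled by total counts, which these 5 transcripts weigh on heavily, 1178 genes rose and 7548 fell in ARNoC, against 2962 and 2565 with the scaling used here. In WT the split was 1099 and 9120 by total counts, against 3114 and 2871. The median log2 change of all genes was -0.36 in ARNoC and -0.44 in WT by total counts, and all 5 transcripts still rose in both genotypes.

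Sbp had 1034196, 1221719, 1057903, 803372 and 1060853 normalized counts in the ARNoC testosterone libraries, against 382241, 455894, 350894, 300808 and 632931 in the ARNoC vehicle libraries. In WT it had 1813921, 2157166, 1604536, 1498687 and 1363049 with testosterone, against 518428, 540263, 501554, 520163 and 431442 with vehicle. The WT testosterone libraries lie highest of the 4 groups and overlap none of them. Sbp rose 2.45-fold in ARNoC (log2 1.29 ± 0.19 SE, adjusted p 2.55e-05, edgeR quasi-likelihood test with Benjamini-Hochberg adjustment). In WT it rose 3.38-fold (log2 1.76 ± 0.19 SE, edgeR adjusted p 6.52e-07).

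Sbpl followed the same order of groups, at a lower level per kilobase. It had 128631, 144665, 139374, 102846 and 136401 normalized counts in the ARNoC testosterone libraries, against 43677, 59007, 44224, 39443 and 86121 in the ARNoC vehicle libraries. WT libraries gave 218199, 259332, 179030, 161411 and 170316 with testosterone, against 56768, 69294, 67019, 67002 and 54378 with vehicle. The highest ARNoC vehicle library, number 5, lay above every WT vehicle library for both Sbp and Sbpl. Sbpl rose 2.40-fold in ARNoC (log2 1.26 ± 0.19 SE, edgeR adjusted p 2.97e-05) and 3.16-fold in WT (log2 1.66 ± 0.19 SE, edgeR adjusted p 1.16e-06).

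Spink3 (ENSMUSG00000024503.3, chr18:43728082-43737557 on the minus strand in GENCODE M21), the protease inhibitor, was a leading transcript with testosterone and a minor one with vehicle. ARNoC libraries had 636793, 803081, 740652, 778721 and 877407 normalized counts with testosterone, against 6393, 5909, 3122, 4449 and 14436 with vehicle. WT libraries had 931334, 1136624, 761926, 615090 and 671296 with testosterone, against 1797, 5519, 4043, 4439 and 2643 with vehicle. The genotypes overlapped under both treatments, and ARNoC vehicle library 5 was the highest of all vehicle libraries. The rise was 112-fold in ARNoC (log2 6.81 ± 0.43 SE, edgeR adjusted p 3.39e-10) and 224-fold in WT (log2 7.81 ± 0.45 SE, edgeR adjusted p 8.08e-11).

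The transcript of 9530002B09Rik had the next largest rise. In ARNoC it had 238926, 251141, 173445, 234813 and 258475 normalized counts with testosterone, against 21814, 31652, 19368, 17827 and 52673 with vehicle. In WT it had 280394, 345083, 240705, 204511 and 253238 with testosterone, against 13284, 30706, 12918, 19489 and 12708 with vehicle. The genotypes overlapped under both treatments. The change was 8.08-fold in ARNoC (log2 3.02 ± 0.31 SE, edgeR adjusted p 2.09e-07) and 14.9-fold in WT (log2 3.90 ± 0.32 SE, edgeR adjusted p 1.12e-08).

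For 5430419D17Rik the ARNoC fold was the larger of the pair. ARNoC libraries had 93517, 74719, 97456, 99419 and 103802 normalized counts with testosterone, against 11686, 23885, 13027, 12543 and 11100 with vehicle. WT libraries had 96325, 105204, 106725, 126202 and 87135 with testosterone, against 34420, 13482, 15376, 15830 and 10834 with vehicle. A single library stood above the rest of each vehicle group, number 2 in ARNoC and number 1 in WT. It rose 6.53-fold in ARNoC (log2 2.71 ± 0.27 SE, edgeR adjusted p 1.55e-07) and 5.84-fold in WT (log2 2.55 ± 0.27 SE, edgeR adjusted p 2.93e-07).

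**Figure D2:**
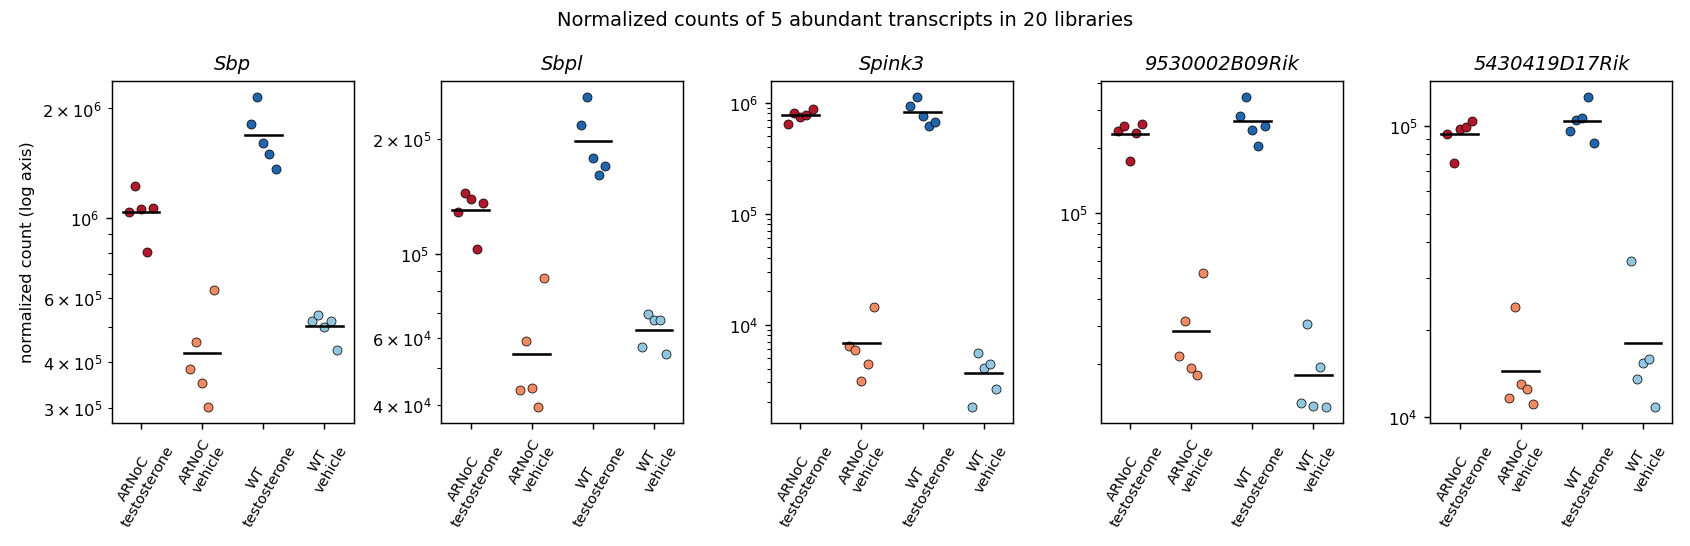
Normalized counts (log axis, a separate scale for each panel) of the 5 transcripts in each library, with 1 point for each library and a line at the mean of the 5 libraries of a group. Testosterone libraries lie above vehicle libraries in each panel, and for Sbp and Sbpl the ARNoC testosterone libraries lie below the WT testosterone libraries.

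Under testosterone the genotypes differed most in Sbp and Sbpl, and neither difference passed the test over all genes. Sbp averaged 1035609 ± 149756 normalized counts in ARNoC and 1687472 ± 309988 in WT (SD, n = 5 each), a 1.62-fold lower level in ARNoC, with log2 difference -0.70 ± 0.19 SE, 95% interval -1.10 to -0.30 and edgeR adjusted p 0.0699. Sbpl averaged 130383 ± 16450 in ARNoC and 197658 ± 40725 in WT (SD, n = 5 each), 1.51-fold lower in ARNoC, with log2 difference -0.60 ± 0.19 SE, 95% interval -0.99 to -0.20 and edgeR adjusted p 0.127. In both, every ARNoC library was below every WT library, as was the case for 2.33% of all genes tested. None of the 5 was called at an adjusted p of 0.05. Of all genes tested, 1.69% were called, and these divide into 1.01% of all genes that were lower and 0.681% that were higher in ARNoC.

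The Sbp call depended on the fit. Its adjusted p was 0.00134 with DESeq2, 0.0410 with limma-voom and 0.0469 with the testosterone groups fitted alone. It was 0.0337 with total-count scaling, where the median log2 difference of all genes was 0.10, against 0.01 with the scaling used here. Leaving out WT testosterone library 5, ARNoC vehicle library 4 or ARNoC vehicle library 5 gave 0.0484, 0.0466 and 0.0210, while limma-trend gave up to 0.509. The Sbpl adjusted p was 0.0264 with DESeq2 and 0.0381 without ARNoC vehicle library 5.

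For the other 3 transcripts the testosterone levels of the genotypes were close. Spink3 took 5.76% ± 0.555 of counts in ARNoC and 5.76% ± 1.12 in WT (SD, n = 5 each), with log2 difference -0.10, 95% interval -0.80 to 0.60 and edgeR adjusted p 0.922. The share of 9530002B09Rik was 1.73% ± 0.220 in ARNoC and 1.86% ± 0.261 in WT (SD, n = 5 each), with log2 difference -0.19, interval -0.78 to 0.40 and edgeR adjusted p 0.797. That of 5430419D17Rik was 0.706% ± 0.0981 in ARNoC and 0.738% ± 0.115 in WT (SD, n = 5 each), with log2 difference -0.15, interval -0.68 to 0.38 and edgeR adjusted p 0.821. These intervals still include differences of up to 0.80 on the log2 scale in the Spink3 case, so similar levels are not shown to be equal. The summed share of the 5 differed by -4.64 points (ARNoC minus WT), and Sbp alone made up 87.8% of that gap, and Sbp with Sbpl 96.6%.

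With vehicle the genotypes overlapped for each of the 5, and none was called. Of all genes tested, 0.321% were called and 1.76% did not overlap. Spink3 averaged 6862 ± 4424 normalized counts in ARNoC and 3688 ± 1475 in WT (SD, n = 5 each), with log2 difference 0.90, 95% interval 0.20 to 1.61 and edgeR adjusted p 0.459. Without ARNoC vehicle library 5 the log2 difference was 0.43. The transcript 9530002B09Rik averaged 28667 ± 14458 in ARNoC and 17821 ± 7739 in WT (SD, n = 5 each), with log2 difference 0.69, interval 0.10 to 1.29 and edgeR adjusted p 0.542, and 0.35 without the same library. Sbp had log2 difference -0.24 (edgeR adjusted p 0.895), Sbpl -0.20 (0.918) and 5430419D17Rik -0.31 (0.895). The last value was 0.06 without WT vehicle library 1 and -0.56 without ARNoC vehicle library 2.

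The testosterone response itself, tested as the ARNoC response minus the WT response, was called for none of the 5, and edgeR called 0 of 15261 genes. At an unadjusted p under 0.05 edgeR gave 1306 genes (8.56%), and DESeq2 called 24, limma-trend 1 (pseudocount 1) or 0 (pseudocount 5) and limma-voom 0. The difference was -0.999 for Spink3 (95% interval -1.99 to -0.01, edgeR adjusted p 0.581), -0.88 for 9530002B09Rik (interval -1.72 to -0.05, edgeR adjusted p 0.559) and 0.16 for 5430419D17Rik (edgeR adjusted p 0.918). For Spink3 the part of this value that comes from the vehicle libraries (0.90) exceeds the part from the testosterone libraries (-0.10). Sbp had -0.46 (edgeR adjusted p 0.652) and Sbpl -0.40 (edgeR adjusted p 0.711). ARNoC vehicle library 5 moved 4 of these values by more than 1.5 times: without it they were -0.53 for Spink3, -0.54 for 9530002B09Rik, -0.27 for Sbp and -0.16 for Sbpl.

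**Figure D3:**
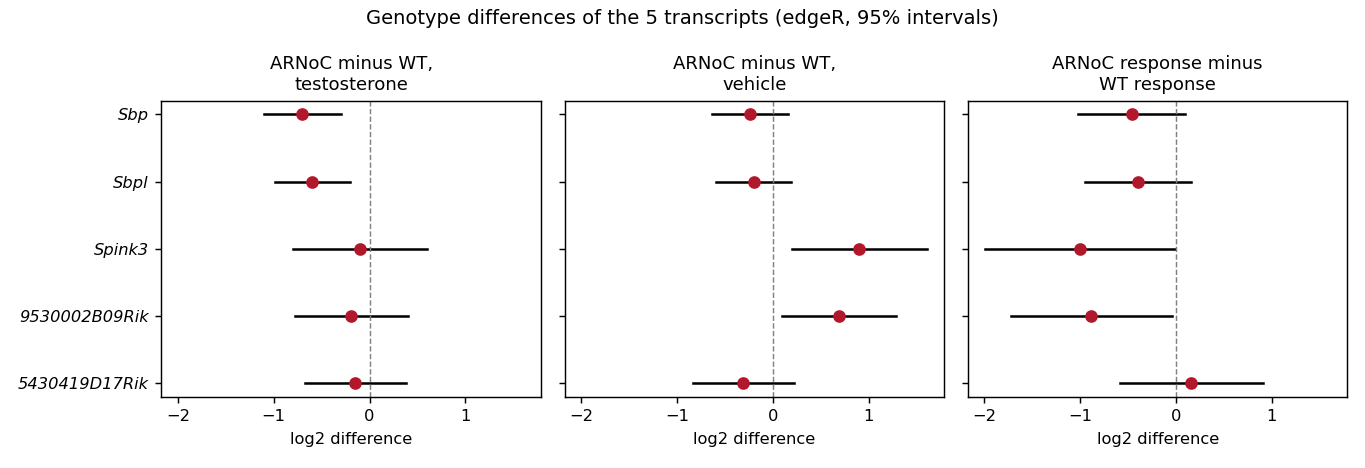
Log2 differences (points, edgeR) with 95% intervals (lines) for ARNoC minus WT with testosterone, ARNoC minus WT with vehicle, and the ARNoC response minus the WT response. Sbp (-0.70) and Sbpl (-0.60) are the transcripts whose interval with testosterone lies wholly below 0, and none of the plotted differences passed adjustment over all genes.

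Sbp and Sbpl moved as a pair across the libraries. The ratio of Sbpl counts to Sbp counts was 0.126 ± 0.00509 in ARNoC with testosterone and 0.127 ± 0.00818 in ARNoC with vehicle (SD, n = 5 each). In WT it was 0.117 ± 0.00708 with testosterone and 0.125 ± 0.00923 with vehicle (SD, n = 5 each). None of the 4 comparisons of this ratio passed a two-sided exact permutation test adjusted over the 4. The lowest p was 0.0556 (adjusted 0.222), for ARNoC against WT with testosterone, with a log2 difference of 0.11, where 0.00794 is the smallest this design allows. The root mean square log2 distance between their profiles over the 20 libraries, each centred on its mean, was 0.0943, while the other pairs among the 5 lay 0.753 to 3.03 apart. The transcripts Sbp-207 and Sbpl-202 are 88.2% identical over 830 aligned positions. Of the 50-base stretches of Sbp-207, 33.9% occur letter for letter in Sbpl-202, so how the authors' counting split such reads is uncertain and the separate levels of the pair are too.

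The ratios of the remaining transcripts to Sbp, chosen after their values were seen, are given with no test. Spink3 counts per Sbp count were 0.754 ± 0.144 in ARNoC and 0.484 ± 0.0455 in WT with testosterone (SD, n = 5 each). The ARNoC libraries ran from 0.616 to 0.969 and the WT libraries from 0.410 to 0.527, without overlap. Sbp, the denominator, did not overlap between these groups either, while Spink3 itself did, so this is not a separate genotype result. How many other genes have a ratio to Sbp without overlap was not counted. With vehicle the ratio was 0.0152 ± 0.00513 in ARNoC and 0.00728 ± 0.00258 in WT (SD, n = 5 each). With testosterone the ratio of 9530002B09Rik to Sbp was 0.227 ± 0.0474 in ARNoC and 0.157 ± 0.0181 in WT, and that of 5430419D17Rik was 0.0931 ± 0.0223 in ARNoC and 0.0633 ± 0.0138 in WT (SD, n = 5 each), and in both the genotypes overlapped. With vehicle the ratio of 9530002B09Rik was 0.0648 ± 0.0117 in ARNoC and 0.0350 ± 0.0131 in WT, and that of 5430419D17Rik was 0.0359 ± 0.0130 in ARNoC and 0.0355 ± 0.0175 in WT (SD, n = 5 each).

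**Figure D4:**
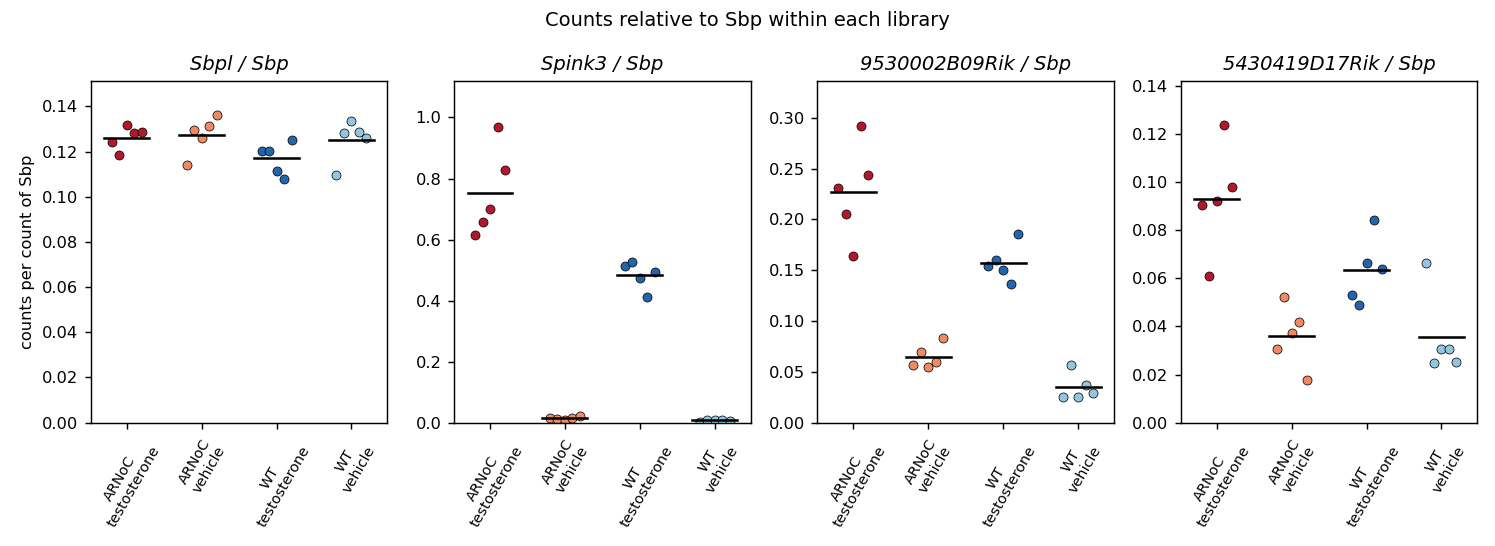
Counts of Sbpl, Spink3, 9530002B09Rik and 5430419D17Rik per count of Sbp within each library (linear axes from 0), with 1 point for each library and a line at the group mean. Sbpl stays at 0.117 to 0.127 of Sbp in all 4 group means, while the Spink3 ratio is 0.754 in ARNoC and 0.484 in WT with testosterone.

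Sbp, Sbpl, Spink3 and 9530002B09Rik were mostly highest in the library of a group where stromal markers were lowest. The stromal score is the mean log2 CPM of the 6 smooth muscle and fibroblast markers Acta2, Myh11, Des, Col1a1, Col3a1 and Dcn. It ran from 7.70 to 8.99 in ARNoC with testosterone, 6.76 to 9.12 in ARNoC with vehicle, 6.70 to 8.45 in WT with testosterone and 7.45 to 9.08 in WT with vehicle. In each of the 4 groups the library with the lowest score had the highest Sbp and the highest Sbpl. It also had the highest Spink3 and 9530002B09Rik in 3 of the 4 groups. It never had the highest 5430419D17Rik, and in both ARNoC groups it had the lowest. How many of all genes tested show this order was not counted, so the order is not shown to be particular to these transcripts. Sbp and Sbpl moved as a pair and are not separate cases. The part of the stromal score in these levels was not tested, as the fit below tests the genotype difference and not the score. With the score as a covariate, added after seeing the data, the ARNoC minus WT difference with testosterone was -0.46 for Sbp (edgeR adjusted p 0.0313) and -0.32 for Sbpl (edgeR adjusted p 0.145), 0.36 for Spink3 (0.436) and 0.21 for 9530002B09Rik (0.525, both edgeR adjusted p). In the same fit the response difference was -0.40 for Spink3 and -0.37 for 9530002B09Rik. The 6 markers did not move together with testosterone. By mean normalized count Acta2, Myh11 and Des were higher with testosterone in both genotypes, and Col3a1 and Dcn lower. Col1a1 was lower in WT (723 against 2436 with vehicle) and slightly higher in ARNoC (1398 against 1290). The score may thus partly follow treatment, and what this does to the fit was not tested.

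**Figure D5:**
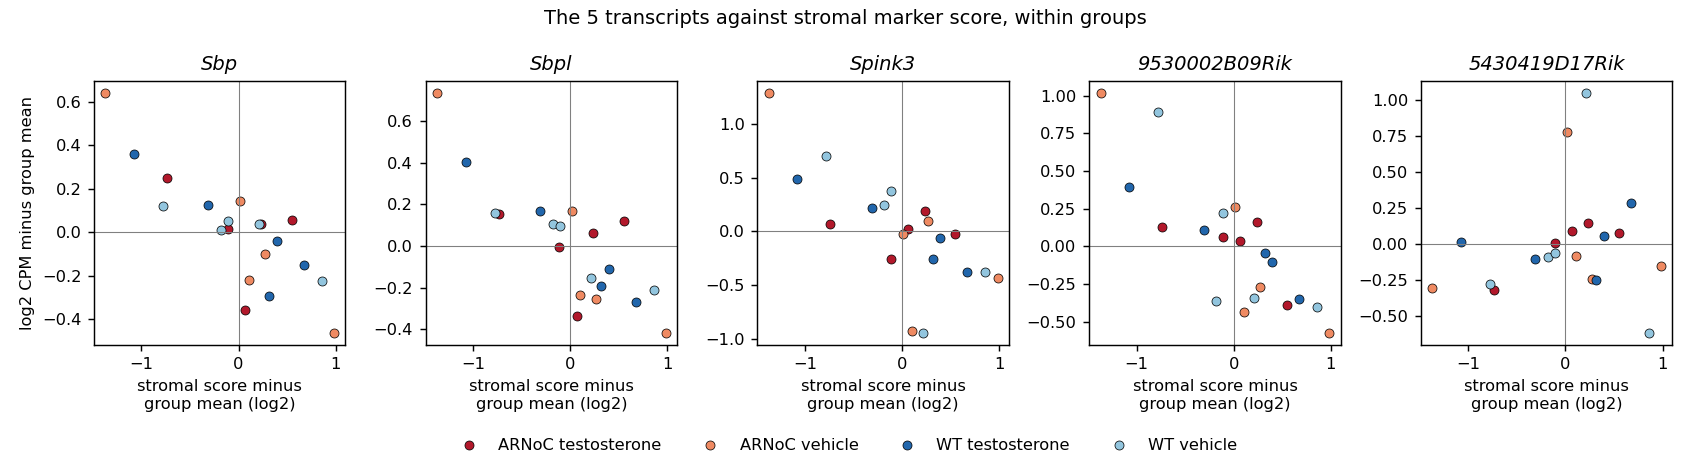
Log2 CPM of each transcript minus its group mean, against the stromal score minus its group mean, with 1 point for each library coloured by group. Sbp and Sbpl are highest at the lowest stromal score in each group, whereas 5430419D17Rik is highest in libraries of middle or high score.

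Markers of the labelled tissue were present in each library. The luminal score, the mean log2 CPM of 8 luminal epithelial genes, ran from 8.89 to 9.19 in ARNoC and 8.91 to 9.14 in WT with testosterone. With vehicle it ran from 8.97 to 9.24 in ARNoC and 8.65 to 8.93 in WT, without overlap, and with this score as a covariate Sbp was called lower in ARNoC with vehicle (log2 -0.63, edgeR adjusted p 0.0491), and the vehicle difference was 0.0723 for Spink3 and -0.0101 for 9530002B09Rik. The part of the luminal score itself in the vehicle values was not tested. Spink3 is also a product of seminal vesicle and pancreas. The 6 seminal vesicle markers summed to at most 3.09 CPM in any library, with Svs3a at 0 in all 20. The 5 pancreas markers summed to 20.9 to 28.2 CPM in ARNoC and 13.4 to 24.3 CPM in WT with testosterone, and to 1.63 to 3.41 CPM in ARNoC and 2.05 to 3.41 CPM in WT with vehicle. Nearly all of this was Cela1, a pancreatic elastase gene and the 1 pancreas marker with enough counts to be tested, while Cpa1 was at 0 in all 20 libraries. Markers shared with other prostate lobes (Pbsn, Msmb, Tgm4 and Defb50, 4 of 4 tested) summed to 5898 to 10659 CPM in ARNoC and 1839 to 8271 CPM in WT with testosterone. With vehicle they summed to 251 to 961 CPM in ARNoC and 107 to 647 CPM in WT. Every testosterone library had a higher sum than every vehicle library, but Tgm4 was not called in WT (log2 -0.44, edgeR adjusted p 0.791). The myeloid markers, 4 of 5 tested, had a median sum of 103 CPM in ARNoC with testosterone and 344 CPM in ARNoC with vehicle, and 41.0 CPM in WT with testosterone and 342 CPM in WT with vehicle. The 4 basal epithelial markers had a median sum of 126 CPM in ARNoC with testosterone and 187 CPM in ARNoC with vehicle, and 153 CPM in WT with testosterone and 247 CPM in WT with vehicle. For the 3 endothelial markers it was 34.9 CPM in ARNoC with testosterone and 44.1 CPM in ARNoC with vehicle, and 28.6 CPM in WT with testosterone and 66.1 CPM in WT with vehicle. The 3 adipocyte markers gave 228 CPM in ARNoC with testosterone and 350 CPM in ARNoC with vehicle, and 117 CPM in WT with testosterone and 929 CPM in WT with vehicle. The part of the pancreas, lobe and other cell type markers in the testosterone response was not tested.

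Other secretory products of male accessory glands mostly rose as well. Of 40 listed, 39 are in the table (Spink1 is counted as Spink3) and 15 had enough counts. With testosterone 11 rose and 1 fell in ARNoC, with a median log2 change of 2.85, and 10 rose and 1 fell in WT, with a median of 2.17. Over all genes tested 19.4% rose and 16.8% fell in ARNoC, and 20.4% rose and 18.8% fell in WT. Pbsn, Msmb, Tgm4 and Defb50 of this list are also the lobe markers above. Tgm4, called in ARNoC and not in WT, averaged 1201 ± 1981 normalized counts in ARNoC with testosterone (SD, n = 5). Spink8 averaged 6.03 in ARNoC and 3.37 in WT with vehicle, below the filter of 10, so testosterone libraries favoured its entry. The most abundant of the listed genes was Spink5, a Kazal-type inhibitor with many inhibitory domains. It averaged 76589 ± 16558 normalized counts in ARNoC with testosterone and 21897 ± 4361 in ARNoC with vehicle, and 50647 ± 6174 in WT with testosterone and 11304 ± 2902 in WT with vehicle (SD, n = 5 each). It rose 3.51-fold in ARNoC (edgeR adjusted p 2.09e-07) and 4.50-fold in WT (edgeR adjusted p 2.17e-08). Spink5 was also called between genotypes with vehicle, 1.94-fold higher in ARNoC (log2 0.96 ± 0.18 SE, edgeR adjusted p 0.0166), the 1 of 15 listed genes called there, beside 0.17% of all genes tested called higher. Msmb, which encodes a protein of seminal plasma, rose 27.6-fold in ARNoC and 29.3-fold in WT. Defb50, a defensin gene, rose 17.9-fold in ARNoC and 21.4-fold in WT. The gene that fell was Wfdc2 in ARNoC (log2 -0.91) and Fgl1 in WT (log2 -1.26). Fgl1 (log2 2.09) and Ceacam10 (log2 1.16) were the 2 of 15 called higher in ARNoC with testosterone, beside 0.681% of all genes tested, and Wfdc2, Fgl1 and Ceacam10 were named after their values were seen. Ceacam10 averaged 62.0 normalized counts in ARNoC and 27.8 in WT with testosterone. With vehicle it averaged 12.3 in ARNoC and 6.17 in WT, the last below the filter. Testosterone libraries thus favoured the entry of Ceacam10, which is also among the genes that rose.

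Among the Spink genes, 12 others are in the table and 3 had enough counts, Spink5, Spink8 and Spink14, a list made after the values were seen. All 3 rose in both genotypes, beside 19.4% of all genes tested in ARNoC and 20.4% in WT. Spink5 and Spink8 are also in the list of secretory products above, so their rises are not separate findings. On the log2 scale Spink8 rose by 2.85 ± 0.57 SE in ARNoC and 3.62 ± 0.63 SE in WT. Its vehicle means were 6.03 and 3.37 normalized counts. Spink14 rose by 1.56 ± 0.49 SE in ARNoC and 2.63 ± 0.55 SE in WT, from vehicle means of 8.22 and 3.95. The changes of Spink8 and Spink14 thus rest on few counts. These vehicle means lie below the filter on counts, so testosterone libraries favoured the entry of both genes. Their rise beside the shares over all genes tested is therefore only a description. Spink3 rose by 6.81 in ARNoC and 7.81 in WT, from vehicle means of 6862 and 3688.

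Since Sbp binds spermine, 20 genes of polyamine synthesis, breakdown and transport were read beside it, of which 18 had enough counts. With testosterone 7 rose and 3 fell in ARNoC (median log2 change 0.21), and 8 rose and 5 fell in WT (median 0.29). The shares over all genes tested were 19.4% higher and 16.8% lower in ARNoC, and 20.4% higher and 18.8% lower in WT. Mat2a, which makes the S-adenosylmethionine used in polyamine synthesis, averaged 30893 ± 2175 normalized counts in ARNoC with testosterone and 4215 ± 1089 in ARNoC with vehicle, and 38103 ± 4311 in WT with testosterone and 3827 ± 795 in WT with vehicle (SD, n = 5 each). It rose by 2.88 on the log2 scale in ARNoC and by 3.32 in WT. Amd1, which decarboxylates that compound for the pathway, rose 1.92-fold in ARNoC and 2.22-fold in WT. Azin1, an inhibitor of antizyme, rose 1.29-fold in ARNoC and 1.36-fold in WT. Odc1, the rate-limiting enzyme of polyamine synthesis, was the 1 listed gene called between genotypes, lower in ARNoC with testosterone (log2 -0.61, edgeR adjusted p 0.00863, beside 1.01% of all genes tested called lower), and it was named after its value was seen.

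Genes whose centred log2 profile over the 20 libraries lay nearest to each of the 5 were sought among 11632 genes averaging at least 50 normalized counts. For Sbp the nearest were Sbpl, Lrrc52 (distance 0.261) and Polr3g (0.277), and for Sbpl they were Sbp, Polr3g (0.263) and Lrrc52 (0.267). Spink3 had no close match, with Abo at 0.941, C2cd4a at 1.13 and D030018L15Rik at 1.17. Abo, which encodes a glycosyltransferase, averaged 27301 ± 4477 normalized counts in ARNoC with testosterone and 581 ± 140 in ARNoC with vehicle, and 31070 ± 2405 in WT with testosterone and 457 ± 49.9 in WT with vehicle (SD, n = 5 each). For 9530002B09Rik the nearest were Gm12876 (0.207), Mat2a (0.411) and Doc2b (0.435). Gm12876 is an unprocessed pseudogene at chr4:122660923-122677278 on the minus strand, 11996 bases from 9530002B09Rik, and its transcript is 92.6% identical to that of 9530002B09Rik over 350 aligned positions. It averaged 882 ± 151 normalized counts in ARNoC and 916 ± 182 in WT with testosterone (SD, n = 5 each). Of the 754 stretches of 50 bases in the 9530002B09Rik transcript 1 occurs letter for letter in that of Gm12876, and of its stretches of 100 bases 0 do. For 5430419D17Rik the nearest were Slc17a9 (0.347), Ccbe1 (0.363) and 9130230L23Rik (0.382).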

How the data were processed

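Gene counts of 20 libraries were read from the deposited count table, which holds raw counts per gene symbol. The deposited signal values are normalized counts, and the deposited ratio values are the size factors of the libraries. Multiplying these gave back the counts within 4.19e-09. Per the submitters' processing notes the tools were FastQC 0.11.7, HISAT2, SAMtools 1.5, HTSeq 2.7.14 and DESeq2, with build mm10. The HTSeq version is copied as listed and may be that of another program. Settings, strand and annotation are not named by any source used here. HTSeq counts reads that map to similar genes in ways that depend on those settings, which bears on Sbp and Sbpl.

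Tested were the genes that reached 10 normalized counts in 5 or more libraries, with edgeR 4.0.16 (R 4.3.3): TMM scaling, 1 mean per group, quasi-likelihood F-test, Benjamini-Hochberg adjustment over all 15261 genes at 0.05. A standard error is the log2 change divided by the square root of F, and the 95% interval uses the t distribution with the fit's degrees of freedom. Alternatives were DESeq2 1.42.0, limma 3.58.1 (voom and trend with pseudocounts 1 and 5), other scalings, no filter, fewer groups, each library left out in turn and, added after seeing the data, 2 marker scores as covariates and the 2 vehicle libraries of lowest stromal score left out together. Marker scores and distances use log2 CPM computed here with TMM scaling. Marker sums in CPM use the library totals without TMM scaling. A planned test of the summed share is not given, since the transcripts were chosen with results known. Library totals ranged from 8861646 to 21600352 counts. The 40 pairs of libraries of a shared group all differed beyond sampling noise (chi-square divided by its degrees of freedom 7.41 to 39.5).

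Named genes are the 5 transcripts, the 10 most abundant genes of each group where a rank needs them, 3 nearest profiles per transcript and the 3 most abundant genes of each list. The transcripts and lists were chosen with earlier results of these data known. Library numbers follow the order of the labels.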

Additional observations from a re-analysis of the deposited data

Results flagged for a closer look

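Of 28 groups of 5 libraries examined, 7 quantities in each of the 4 groups, 4 held a library that stood far from the other 4 for its distance relative to the group's range; chance flags about 1 in 20 groups. Spink3 had 14436 normalized counts in ARNoC vehicle library 5, where the other ARNoC vehicle libraries had 3122 to 6393. The transcript 9530002B09Rik had 173445 in ARNoC testosterone library 3, below 234813 to 258475 in the others of its group. The transcript 5430419D17Rik had 23885 in ARNoC vehicle library 2, where the others of that group had 11100 to 13027, and 34420 in WT vehicle library 1, where the others had 10834 to 15830. ARNoC vehicle library 5 also had the lowest stromal score of its group, 6.76, and ARNoC testosterone library 3 had the highest of its group, 8.99; their part in these values was not tested.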

How the results depend on the processing

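No paired analysis was possible because the labels give no replicate numbers. The testosterone responses of all 5 transcripts kept their direction and call under every alternative run in both genotypes. As the transcripts were chosen for abundance, this describes their stability and is not further support. Of 760 values with 1 library left out, 738 kept direction and call or stayed within the limits set for counts, as did 338 of 370 under other settings. The causes of the changes below were not tested.

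Sbp in ARNoC against WT with testosterone passed under DESeq2 (-0.70), limma-voom (-0.69), the compared groups alone (-0.70), total-count scaling (-0.61), without both stroma-poor vehicle libraries (-0.70), and with the stromal (-0.46) or luminal (-0.76) score as covariate; with 1 library left out it ran from -0.78 to -0.60. Sbpl passed under DESeq2 (-0.60), without both stroma-poor libraries (-0.60) and with the luminal score (-0.65); with 1 library left out it ran from -0.67 to -0.48. With vehicle, Sbp passed with the luminal score (-0.63).

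Signs turned for values that were never called. With the stromal score, ARNoC minus WT with testosterone was 0.36 for Spink3 and 0.21 for 9530002B09Rik. With the luminal score, 9530002B09Rik with vehicle was -0.0101 and the response difference of 5430419D17Rik was -0.00866. With 1 library left out, Spink3 with testosterone ran from -0.20 to 0.0438, 5430419D17Rik with vehicle from -0.56 to 0.0588 and its response difference from -0.21 to 0.41. The log2 ratio of Sbpl to Sbp ran from -0.0224 to 0.0639 for ARNoC against WT with vehicle and from -0.0503 to 0.0127 for testosterone against vehicle in ARNoC.

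Counts of genes called were 5527 for testosterone in ARNoC (8726 by total counts) and 5985 in WT (10219 by total counts). For ARNoC against WT with vehicle the count was 49, with 137 under DESeq2, 19 with the compared groups alone, 86 with the stromal and 295 with the luminal score, and 29 to 76 with 1 library left out. With testosterone it was 258, with 493 under DESeq2, 437 by total counts (336 higher, 101 lower), 447 with the stromal and 724 with the luminal score, and 154 to 286 with 1 library left out. For the response difference it was 0, with 24 under DESeq2, 1 under limma-trend, 2 by total counts, 2 with no filter and 0 to 2 with 1 library left out. Taken over the counts of all other genes, the summed share differed by 15.1 points for testosterone against vehicle in ARNoC, 21.6 points in WT and -7.25 points between genotypes with testosterone. The response difference has no fit with the compared groups alone, since it uses all 4.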
